A study of Mus musculus with 10 samples.

Results

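The 10 genes described here encode the cytokine receptor subunit gp130 and its partners, the kinases and the transcription factor Stat3 behind them, and genes that this signal switches on. They were Lif, Clcf1, Il6st, Lifr, Osmr, Jak1, Jak2, Stat3, Socs3 and Cebpd, taken by exact gene symbol from the platform annotation, and they were read by 26 of the 22626 probe sets that were not controls and made up 10 of the 12393 genes measured. All 10 had a value on every array. The tissue was the optic nerve head, where the axons of retinal ganglion cells leave the eye, from C57Bl/6 male mice of 6 to 8 weeks. In the group called high IOP, the right eye had been held at an intraocular pressure of 30 mmHg for 1 h through a saline-filled micropipette in the anterior chamber, and in the control group the left eye had not been operated on. Both were collected 3 days later, 2 nerve heads were pooled for each of 5 arrays per group, and 10 mice were used; the labels name no other genotype or agent. By these counts both eyes of each mouse were used, so the groups are fellow eyes of the same mice and are not independent. Side of the body and cannulation went with pressure and cannot be told apart from it, and the pools, called biological replicates in the labels, each average 2 nerve heads.

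Cytokines of the interleukin-6 family, among them leukemia inhibitory factor and cardiotrophin-like cytokine, act through receptors that share gp130, the product of Il6st. The receptor-bound Janus kinases phosphorylate Stat3, which enters the nucleus and switches on genes that include Socs3, whose product binds gp130 and the kinases and ends the signal. In the optic nerve and retina this pathway is known for its part in the reaction of astrocytes and Müller glia to injury and in the survival and regrowth of ganglion cells.

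The stretches of DNA before the start sites of Socs3, Osmr and Lif are shown because Socs3 and Osmr varied together over the arrays, as did Lif with Clcf1, in the data below. RefSeq's promoter table for build GRCm38.p6 held 8 of the 10 genes, with 9 start sites, and lacked Clcf1 and Cebpd. Each line gives the 250 bases before the start, 5′ to 3′, and capitals, absent from Osmr, mark the words searched for display, which were the STAT word TTCNNNGAA, the AP-1 word TGACTCA and the cyclic AMP response word TGACGTCA, on both strands.
Socs3, chr11:117969367-117969616, minus strand: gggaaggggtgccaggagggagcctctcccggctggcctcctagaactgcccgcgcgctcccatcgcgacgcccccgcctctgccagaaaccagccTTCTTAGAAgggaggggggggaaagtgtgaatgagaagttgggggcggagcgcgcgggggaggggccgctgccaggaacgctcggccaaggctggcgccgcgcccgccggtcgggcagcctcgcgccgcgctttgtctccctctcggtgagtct
Osmr, chr15:6874314-6874563, minus strand: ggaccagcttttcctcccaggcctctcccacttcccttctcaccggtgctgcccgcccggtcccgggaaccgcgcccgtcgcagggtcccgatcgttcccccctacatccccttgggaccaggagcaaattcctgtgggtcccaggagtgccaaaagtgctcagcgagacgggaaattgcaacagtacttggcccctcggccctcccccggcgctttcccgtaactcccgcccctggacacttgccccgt
Lif, chr11:4257318-4257567, plus strand: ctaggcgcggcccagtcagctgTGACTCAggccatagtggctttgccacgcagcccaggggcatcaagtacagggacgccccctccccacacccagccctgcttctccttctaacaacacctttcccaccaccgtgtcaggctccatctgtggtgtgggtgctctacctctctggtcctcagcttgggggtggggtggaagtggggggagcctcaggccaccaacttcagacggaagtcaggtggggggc
The STAT word lay in the Socs3 stretch, from 154 to 146 bases before the start, and in none of the other 8 stretches, while 7.02% of all 32851 stretches of this length held it. Lif held the AP-1 word from 228 to 222 bases before its start (4.46% of all stretches), and Jak1 the cyclic AMP response word from 101 to 94 bases before (1.55%). A C/EBP word, TTGCNNCAA, was in none of the 9 and in 1.74% of all. The GC box GGGCGG was in 7 of the 9 and in 32.7% of all, and the TATA word TATAAA in none of the 9 and in 12.4%. A match describes the letters only.

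The tissue label was checked against defining markers. Gfap, the astrocyte filament gene, had a signal between 10644 and 12631 and Mbp, the myelin gene, between 13490 and 15433. The defining genes of vessels, connective tissue, microglia and axons lay above the dimmest 25% of genes. So did those of pigment epithelium, Rpe65 (87.5 to 2185), and of neutrophils, S100a8 (124 to 2495), which varied widely between pools, while Acta1 of skeletal muscle lay within it (10.3 to 28.8). Median signals of the arrays were between 414 and 475. High IOP replicate 1 stood apart, as it correlated with the remaining arrays at 0.974 on average and they at 0.986 to 0.989. Its Gapdh ratio, signal at the 3′ end of that transcript over signal at the 5′ end and a sign of RNA quality, was 2.07 against 1.53 to 1.73. The same ratio for actin did not single it out. That ratio was 2.13 on high IOP replicate 4, 2.10 on high IOP replicate 1 and 1.65 to 1.94 elsewhere. The score of high IOP replicate 1 for oligodendrocyte genes, the mean log2 deviation from the 10-array mean, was -0.91 against -0.21 to 0.42 elsewhere. Of the 10 genes described here this array was highest for 4 (Stat3, Socs3, Osmr and Il6st) and lowest for 3 (Lifr, Jak1 and Jak2), so the group differences of these 10 genes are given with and without it. Of all lists of marker genes, the photoreceptor list had the score that varied most, from -1.326 on control replicate 3 to 1.396 on control replicate 4. Its mean was 0.431 higher after high IOP, the largest difference of all lists (exact permutation p = 0.492, adjusted p = 0.873). With each array left out in turn, this difference was between 0.153 and 0.834. In pooled tissue, fewer cells of a type and less RNA per cell cannot be told apart.

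None of the 10 genes differed between high IOP and control at a limma adjusted p under 0.05, and neither did any of the 12393 genes (0% called). At an unadjusted p under 0.05 there was 1 of the 10, Jak1, which was lower, against 3.99% of all genes (2.65% higher and 1.34% lower). On log2(signal + 16), the scale of every fold change here, which understates changes of dim genes, 7 of the 10 had a higher and 3 a lower mean after high IOP, with a median of 0.12, against 47.3% of all genes higher and a median of -0.0094. The count of 7 was 5 with the mean over probe sets and with the oligodendrocyte score or the Gapdh ratio as a covariate. In none of the 10 did the groups fail to overlap, against 0.629% of all genes (0.403% with high IOP above and 0.226% below). Changes beyond 1.5-fold either way fell outside the 95% confidence intervals of 6 of the 10, and of 76.8% of all genes.

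**Figure D1:**
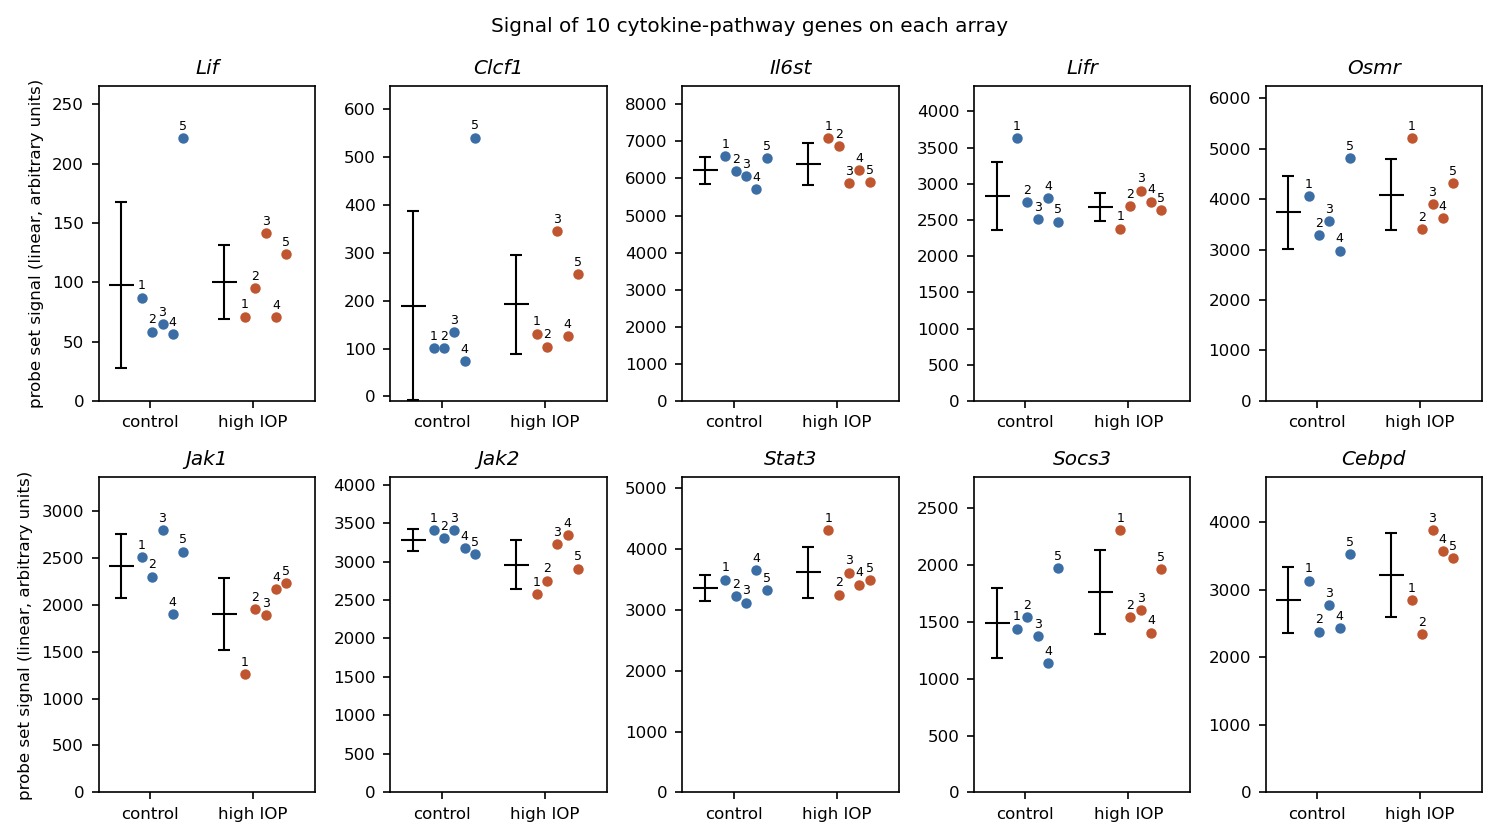
Probe set signal (vertical axis, linear, arbitrary units, a scale of its own for each gene) of the 10 genes on the 10 arrays, with the replicate number beside each point and bars for the mean ± SD of 5 arrays. Groups overlapped in every panel, and control replicate 5 was highest for Lif and Clcf1 while high IOP replicate 1 was highest for Socs3, Osmr, Stat3 and Il6st.

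Among the ligands, Lif encodes leukemia inhibitory factor. Its signal was 86.9, 58.4, 64.6, 56.5 and 221 on control arrays 1 to 5 and 71.1, 94.7, 141, 70.5 and 124 on high IOP arrays 1 to 5. The highest value was a control array, and high IOP replicates 3 and 5 followed it. The log2 fold change was 0.16, with an interval from -0.55 to 0.86 (limma adjusted p = 0.919), an interval that includes changes above 1.5-fold in the higher direction. By mean signal Lif lay in the dimmest 25% of genes. Its other probe set, 1450160_at, was between 0.98 and 2.31 on all arrays but high IOP replicate 5, where it was 11.3.

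Clcf1 encodes cardiotrophin-like cytokine factor 1, a ligand of the ciliary neurotrophic factor receptor. It read 100, 101, 134, 74.4 and 540 on the control arrays and 131, 104, 345, 126 and 255 on the high IOP arrays. The same arrays were high as for Lif, control replicate 5 and high IOP replicates 3 and 5. Clcf1 spanned 7.26-fold over the 10 arrays and had the widest interval of the 10 genes, from -0.82 to 1.32 around a log2 fold change of 0.25 (limma adjusted p = 0.913). Without high IOP replicate 1 the log2 fold change was 0.34 for Clcf1 and 0.25 for Lif. Without control replicate 5 the log2 fold change was 0.70 for Clcf1 and 0.46 for Lif, and without high IOP replicate 3 it was 0.02 and 0.04. The probe set 1437271_at repeated the pattern of Clcf1 over the arrays (Pearson r = 0.937 between these probe sets over 10 arrays, as a description), with 459 on control replicate 5 and 287 and 297 on high IOP replicates 3 and 5, while the remaining one, 1450262_at, read 81.0 to 102 in control tissue and 47.1 to 137 after high IOP.

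Il6st, which encodes gp130, was the steadiest of the 10. Control arrays read 6601, 6198, 6055, 5706 and 6545 and high IOP arrays 7078, 6871, 5877, 6221 and 5907. These values spanned 1.24-fold, with high IOP replicates 1 and 2 on top and control replicate 4 at the bottom. The log2 fold change of 0.04 had an interval from -0.15 to 0.22 (limma adjusted p = 0.929) and was -0.0012 without high IOP replicate 1. Dimmer probe sets of the gene had means of the opposite order, with log2 fold changes of -0.21 for 1421239_at (interval -0.45 to 0.04) and -0.37 for 1460295_s_at (interval -0.80 to 0.06), the latter at -0.21 without high IOP replicate 1.

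Lifr encodes the receptor chain that pairs with gp130 to bind leukemia inhibitory factor. Its brightest probe set read 3626, 2750, 2511, 2802 and 2478 in control and 2380, 2694, 2907, 2751 and 2637 in high IOP tissue. Apart from control replicate 1, all arrays lay within the range of 2380 to 2907. The log2 fold change was -0.07 (interval -0.32 to 0.17, limma adjusted p = 0.894), 0.02 without control replicate 1 and -0.03 without high IOP replicate 1. The dim probe set 1450207_at read 47.0, 36.7, 50.6, 43.9 and 43.4 in control and 37.0, 30.2, 31.3, 26.1 and 32.4 in high IOP tissue. There 4 of 5 high IOP arrays lay below every control array, and high IOP replicate 1 overlapped with control replicate 2. Its log2 fold change of -0.35 (standard error 0.091) had an unadjusted p of 0.00294 in limma's fit over all 22626 probe sets, and an adjusted p of 0.837. Of the 26 probe sets, 2 had an unadjusted p under 0.05 and both were lower (4.44% of all probe sets did, 2.33% higher and 2.11% lower), and none passed after adjustment (0% of all). Groups overlapped at all 26 (0.663% of all probe sets did not), and 12 of the 26 intervals lay within 1.5-fold (75.8% of all). With 16 added before the log, the change of the dim 1450207_at is understated, and its size depends on that number. With 1 added it was -0.48 and with 64 added -0.18. With a trended robust variance in limma its unadjusted p was 0.0121. The third probe set of Lifr, 1425107_a_at, stood at 0.15, and at -0.022 without control replicate 2.

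Osmr encodes the oncostatin M receptor chain, which also pairs with gp130. The control arrays read 4061, 3281, 3564, 2975 and 4808, and the high IOP arrays 5200, 3410, 3894, 3615 and 4313. High IOP replicate 1 and control replicate 5 were highest and control replicate 4 was lowest, across both groups. The log2 fold change was 0.13 (interval -0.20 to 0.47, limma adjusted p = 0.858) 0.04 without high IOP replicate 1, 0.06 without control replicate 4 and 0.23 without control replicate 5. Its direction turned with the mean over probe sets (-0.021), the oligodendrocyte covariate (-0.0048) and the Gapdh covariate (-0.031). A dimmer probe set, 1418675_at, stood at -0.17 (interval -0.72 to 0.38), and at -0.0023 without control replicate 1.

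**Figure D2:**
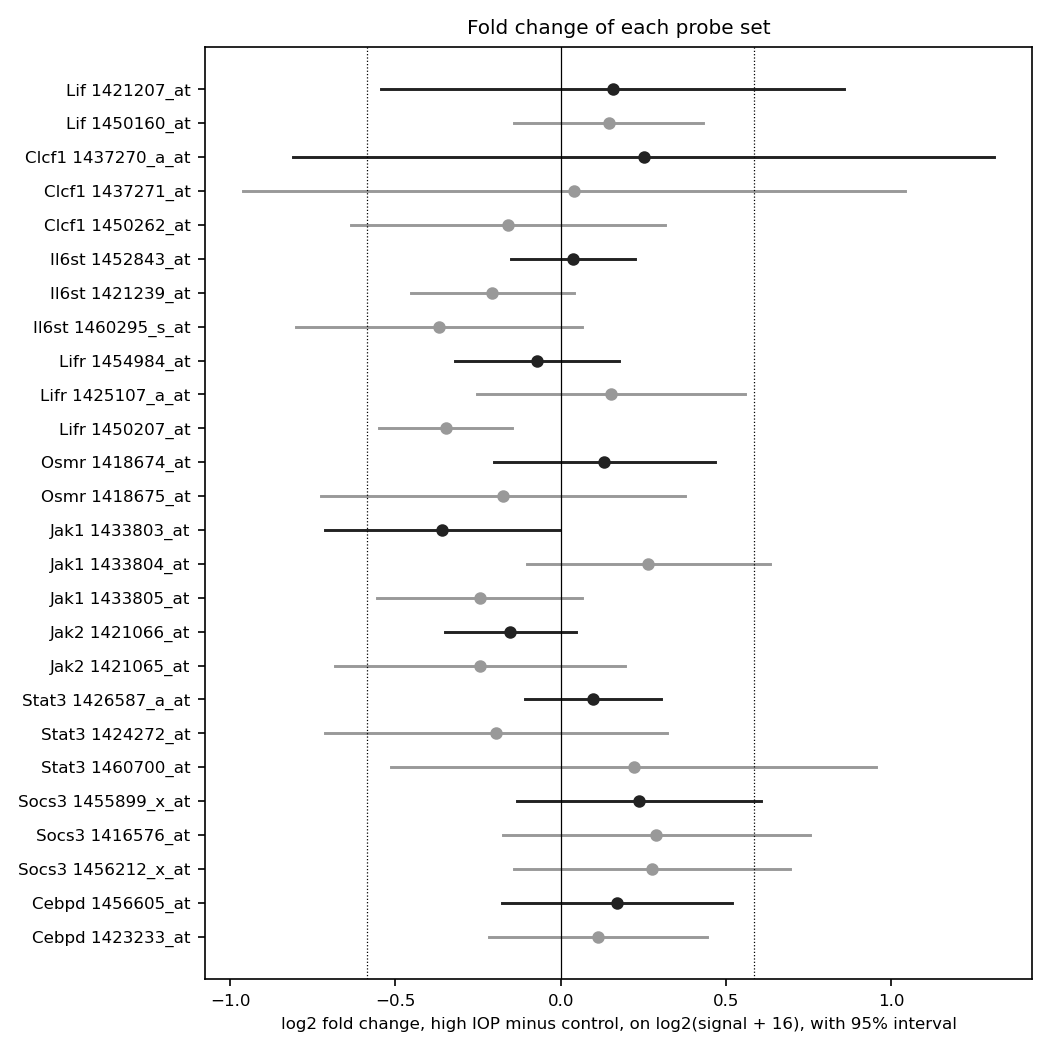
Log2 fold change, high IOP minus control, of each of the 26 probe sets (points) with its 95% interval (lines) from limma's fit over all probe sets, where black marks the brightest probe set of a gene, grey the others, and dotted lines a 1.5-fold change. All intervals but those of Lifr 1450207_at and Jak1 1433803_at include 0, and probe sets of Il6st, Jak1, Osmr, Lifr, Clcf1 and Stat3 lie on both sides of it.

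Jak1 and Jak2 encode the kinases that sit on these receptors. Jak1 read 2507, 2298, 2796, 1896 and 2563 in control and 1261, 1955, 1885, 2165 and 2229 in high IOP tissue. The high IOP arrays were lower on average, the lowest being high IOP replicate 1, and control replicate 4 lay within their range. With means of 2412 ± 338 (SD, n = 5) and 1899 ± 384 (SD, n = 5), the log2 fold change was -0.36 (standard error 0.16, interval -0.71 to -0.0019), with an unadjusted p of 0.049 and a limma adjusted p of 0.849. Without high IOP replicate 1 it was -0.22, with an unadjusted p of 0.0893 in limma's fit over the remaining arrays. With all arrays and the Gapdh ratio as a covariate it was -0.17 (limma unadjusted p = 0.309). With the oligodendrocyte score as a covariate it was -0.21 (limma unadjusted p = 0.177). The probe sets of Jak1 did not move together. The probe set 1433805_at stood at -0.24 (-0.14 without high IOP replicate 1) and correlated with the brightest at r = 0.75, but 1433804_at stood at 0.27 (interval -0.10 to 0.63) and correlated with it at r = -0.508, as a description over 10 arrays. The mean over the 3 probe sets had a log2 fold change of -0.11.

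Jak2 read 3404, 3305, 3410, 3177 and 3094 in control and 2575, 2750, 3228, 3341 and 2908 in high IOP tissue. High IOP replicates 1, 2 and 5 lay below every control array, while replicates 3 and 4 lay within the control range. The log2 fold change was -0.15 (interval -0.35 to 0.04, limma adjusted p = 0.849) and -0.10 without high IOP replicate 1. Its other probe set stood at -0.24, and at -0.07 without that array.

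Stat3 encodes the transcription factor that the kinases activate by phosphorylation, a step that RNA levels do not measure. It read 3502, 3230, 3122, 3653 and 3329 in control and 4317, 3254, 3612, 3415 and 3490 in high IOP tissue. Except on high IOP replicate 1, every high IOP value lay within the control range. The interval around its log2 fold change of 0.10 ran from -0.10 to 0.30 (limma adjusted p = 0.849), and without that array the value was 0.03. A second bright probe set, 1460700_at, ranged from 977 on control replicate 4 to 3294 on control replicate 5, a 3.37-fold span. Its log2 fold change was 0.22 (interval -0.51 to 0.95), and -0.04 without control replicate 4. Its correlation with the brightest probe set was r = 0.035 over 10 arrays, as a description. The dim probe set 1424272_at stood at -0.20 (interval -0.71 to 0.32), and at -0.02 without high IOP replicate 1. This dim probe set correlated with the brightest at r = -0.447, as a description over 10 arrays.

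Socs3, the feedback inhibitor, read 1440, 1540, 1373, 1134 and 1972 in control and 2306, 1538, 1600, 1403 and 1960 in high IOP tissue. High IOP replicate 1, control replicate 5 and high IOP replicate 5 were the highest, and control replicate 4 the lowest. Its log2 fold change was 0.24 (interval -0.13 to 0.61, limma adjusted p = 0.849). It was 0.13 without high IOP replicate 1 and 0.14 without control replicate 4. This probe set has the suffix x, which marks probes that can match other transcripts. The probe set 1416576_at, without the suffix, stood at 0.29, and at 0.17 without high IOP replicate 5. The third, 1456212_x_at, has the suffix too and stood at 0.28. Without high IOP replicate 1, 1416576_at stood at 0.155 and 1456212_x_at at 0.16. With the Gapdh ratio as a covariate Socs3 stood at 0.073.

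Cebpd encodes the C/EBP delta factor, which is induced by Stat3 in the acute phase response. It read 3137, 2382, 2780, 2432 and 3526 in control and 2852, 2342, 3889, 3574 and 3471 in high IOP tissue. High IOP replicates 3, 4 and 5 and control replicate 5 formed the upper part, and replicate 2 of each group was lowest in its group. On the log2 scale the change was 0.17 (interval -0.18 to 0.52, limma adjusted p = 0.849), 0.10 without high IOP replicate 3 0.28 without high IOP replicate 2 and 0.21 without high IOP replicate 1, and its second probe set stood at 0.11, or 0.04 without control replicate 4.

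**Figure D3:**
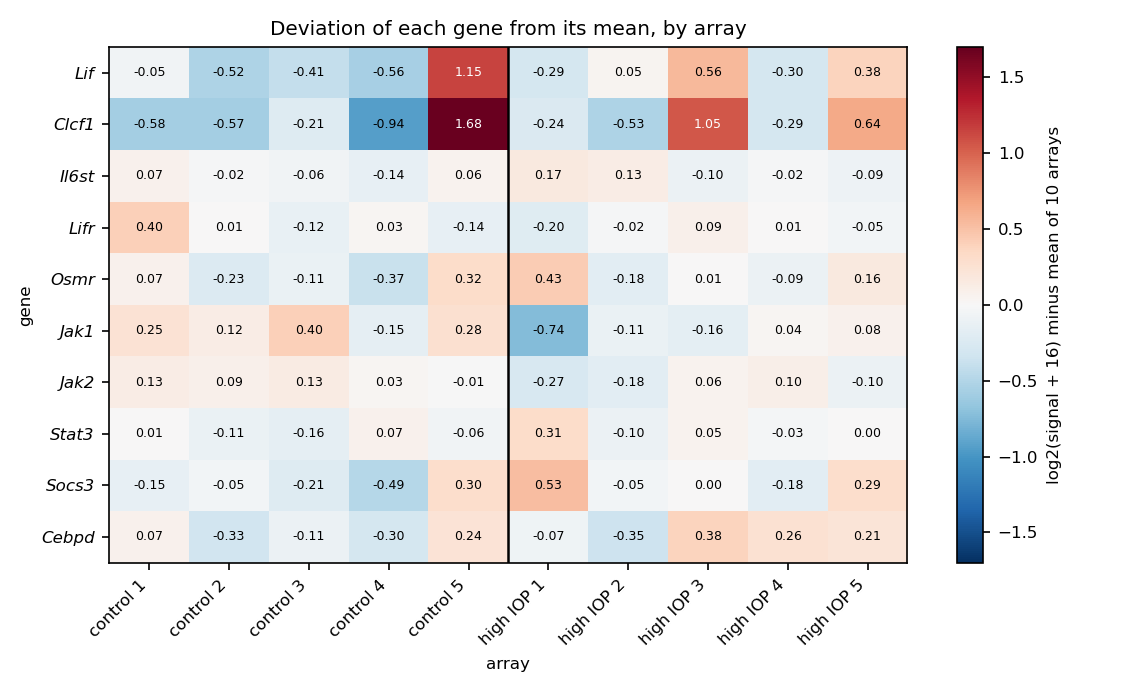
Log2(signal + 16) of each gene (rows) minus its mean over the 10 arrays (columns, with the groups divided by a line), printed in each cell and coloured from lower in blue to higher in red. Lif and Clcf1 are raised together on control replicate 5 (1.15 and 1.68) and high IOP replicates 3 (0.56 and 1.05) and 5 (0.38 and 0.64), while high IOP replicate 1 has Socs3 at 0.53, Osmr at 0.43 and Jak1 at -0.74.

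The genes also varied between arrays of one group. Of the 45 pairs, 25 had a positive and 20 a negative correlation over the 10 arrays, with a median Pearson r of 0.13, and 2 pairs passed a two-sided permutation test after Benjamini-Hochberg adjustment over the 45. Socs3 and Osmr, the inhibitor and a receptor chain, correlated at r = 0.899 (permutation p = 0.00042, adjusted p = 0.01845) and Spearman's rho = 0.77 (permutation p = 0.0131, adjusted p = 0.311). Without the arrays farthest from the median of Socs3, control replicate 4 and high IOP replicate 1, r was 0.748, without high IOP replicate 1 alone 0.839, and on deviations from the group means 0.897. Lif and Clcf1, both ligands, correlated at r = 0.924 (permutation p = 0.00082, adjusted p = 0.01845) and rho = 0.733 (permutation p = 0.0207, adjusted p = 0.311). Without control replicate 5 and high IOP replicate 3, r was 0.715, and on deviations from the group means 0.923. By rank, none of the 45 pairs passed after adjustment. With each array left out in turn, r stayed between 0.839 and 0.936 for Socs3 and Osmr and between 0.846 and 0.956 for Lif and Clcf1, but both pairs missed the adjusted threshold in the 5 cases without control replicate 4 or 5 or high IOP replicate 1, 3 or 5.

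**Figure D4:**
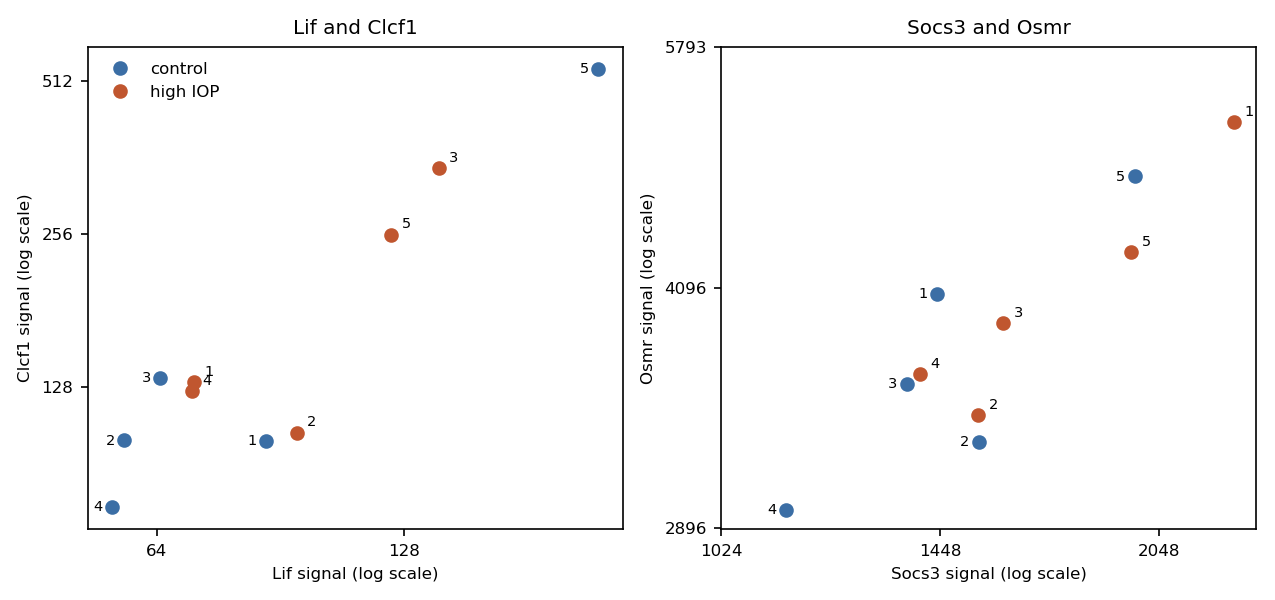
Signals of Clcf1 against Lif and of Osmr against Socs3 (log axes) on each array, blue for control and orange for high IOP, numbered by replicate. Control and high IOP arrays are mixed along both trends, and 3 arrays (control replicate 5, high IOP replicates 3 and 5) make the upper end for Lif and Clcf1.

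The pairs depended on the probe sets read. With other probe sets, chosen after the data were seen, r between Socs3 and the brightest Osmr probe set was 0.861 and 0.882, but with the dimmer Osmr probe set it was between 0.227 and 0.293 for the 3 of Socs3. Lif and Clcf1 stood at 0.899 with 1437271_at and at 0.432 with 1450262_at, and between 0.141 and 0.354 with the Lif probe set that is near 1 on most arrays. Stat3 and Socs3, each read by its brightest probe set, stood at r = 0.454 (permutation p = 0.19, adjusted p = 0.407) and rho = 0.224. Without high IOP replicate 1, r was -0.15, so at these probe sets the sign rested on that array. The second bright Stat3 probe set, which correlated with the first at r = 0.035, was not set against Socs3. Ordered by r with Stat3, Socs3 ranked 903 among the 6195 genes of the upper part by mean signal. For Stat3 and Jak1, r was -0.871 (permutation p = 0.0043, adjusted p = 0.0645) with all arrays, -0.609 without high IOP replicate 1 and -0.394 without that array and control replicate 3. Clcf1 and Cebpd, at r = 0.743, did not pass either (permutation p = 0.0122, adjusted p = 0.115).

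Scores of 11 marker lists for cell types of the nerve head and its surroundings, with the Gapdh ratio, were set against the 10 genes, a choice made after seeing the data. None of the 120 relations passed after adjustment (lowest adjusted permutation p = 0.326 for Pearson's r and 0.0876 for Spearman's rho). By rank the lowest was Stat3 with the score of pericytes and smooth muscle (rho = 0.903, r = 0.71, and r = 0.736 without high IOP replicate 1). Stat3 and the oligodendrocyte score stood at r = -0.846 (rho = -0.636), and Stat3 and the Gapdh ratio, in log2, at r = 0.771 (rho = 0.261), which were -0.478 and -0.041 without that array. Socs3 and the Gapdh ratio stood at r = 0.628 (rho = 0.564) and Osmr and that ratio at 0.633 (rho = 0.733), and 0.17 and 0.245 without high IOP replicate 1. The lowest unadjusted permutation p for Pearson's r, 0.00644, was that of Jak2 with the score of retinal neurons and axons. There r was 0.784 (rho = 0.77), and 0.752 without high IOP replicate 1. Jak1 stood at r = 0.733 with the oligodendrocyte score and -0.75 with the Gapdh ratio, and at 0.16 and 0.016 without that array. The score of neutrophil and blood genes was 0.12 on control replicate 5, -0.71 on high IOP replicate 3 and 0.41 on high IOP replicate 5, the arrays highest for Lif and Clcf1. Between the groups no list's score differed after adjustment (exact permutation test, lowest p 0.0476 for skeletal muscle with a difference of 0.10, adjusted p 0.524), and the part of tissue content in any value above was not tested further.

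Genes whose pattern over the 10 arrays was most like that of Socs3 were taken from the brighter 6195 other genes by Pearson's r, as a description without a test. They were Fndc1 (0.916), Map6 (0.908), Osmr (0.899), Mmp14 (0.892) and Grwd1 (0.884), which had r of 0.788, 0.77, 0.748, 0.659 and 0.634 without control replicate 4 and high IOP replicate 1. Mmp14 encodes a membrane-anchored metalloproteinase of matrix turnover and Map6 a microtubule-stabilising protein. For Stat3 they were Rpl37a (0.969), a ribosomal protein gene, and Wdr12 (0.929), Bex3 (0.921), Rab5if (0.917) and Tfb2m (0.917), which had r of 0.901, 0.746, 0.832, 0.719 and 0.546 without control replicate 3 and high IOP replicate 1.

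The other genes of the pathway were taken in 5 lists, and in each list 0 genes passed limma's test over all genes (0% of all genes called). Among ligands, 3 of 4 measured genes had higher means (median log2 fold change 0.01). Il11 read 108 ± 41.7 (SD, n = 5) without and 138 ± 23.8 (SD, n = 5) with high IOP, a log2 fold change of 0.36 (interval -0.10 to 0.83), while Ctf1, which encodes cardiotrophin 1, stood at -0.12 and Ebi3 at 0.02. Il11 was 0.24 without control replicate 3, and Ctf1 was -0.05 without control replicate 1 and likewise without control replicate 2. Il6 itself, the name-giving cytokine, had mean signals of 5.09 and 5.31, among the dimmest 25% of genes. All 4 measured receptor chains had higher means (median 0.20). Il6ra stood at 0.30 (interval -0.15 to 0.76), Cntfr, which binds ciliary neurotrophic factor, at 0.15 and Il27ra at 0.26. The median was 0.048 with the Gapdh ratio as a covariate and 0.090 with the oligodendrocyte score. Among the alternatives that kept all arrays, Il6ra fell to 0.057 and Il27ra to 0.0023. The second probe sets of Il6ra and Cntfr had the opposite sign, and with the mean over probe sets Cntfr stood at -0.0068. Without high IOP replicate 1, Il6ra stood at 0.21, Cntfr at 0.09 and Il27ra at 0.14, and Il6ra was 0.50 without high IOP replicate 2.

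Of 7 other Janus kinases and STATs, 4 had higher and 3 lower means (median 0.02). Stat6, the factor of interleukin-4 signalling, read 2295 ± 263 (SD, n = 5) and 2822 ± 689 (SD, n = 5), a log2 fold change of 0.27 (interval -0.08 to 0.62) that was 0.15 without high IOP replicate 1. Stat5a stood at -0.01, Stat5b at -0.20 and the dim Jak3 at 0.32, against 0.0070, -0.08 and 0.23 without that array, and Stat5b stood at -0.014 with the Gapdh ratio as a covariate. Among 16 other brakes on the pathway, 7 were higher and 9 lower (median -0.02), and 15 intervals lay within 1.5-fold. Pias4, a SUMO ligase that restrains STATs, was the 1 gene of these 16 with an unadjusted p under 0.05 (3.99% of all genes), at 93.5 ± 9.65 (SD, n = 5) and 116 ± 14.9 (SD, n = 5), with a log2 fold change of 0.27 (interval 0.05 to 0.49, limma adjusted p = 0.849). Socs1, the gene of another inhibitor of Janus kinases and among the dimmest 25% of genes, stood at 0.22 (interval -0.02 to 0.46), and the bright phosphatase gene Ptpn11 at 0.04, with Socs5 at -0.07 and Pias1 at -0.14. Without high IOP replicate 1, Socs1 stood at 0.18, Ptpn11 at 0.0044 and Pias1 at -0.065, and Socs5 turned to 0.030.

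Of 24 genes known to respond to Stat3, 13 had higher and 11 lower means (median 0.02, range -0.58 to 0.45), and 12 intervals lay within 1.5-fold. Junb, an AP-1 subunit gene, was the 1 of the 24 with an unadjusted p under 0.05 (3.99% of all genes), with 122 ± 29.1 (SD, n = 5) and 174 ± 45.6 (SD, n = 5) without and with high IOP, a log2 fold change of 0.45 (interval 0.04 to 0.85, limma adjusted p = 0.849). A2m, which encodes the protease inhibitor alpha-2-macroglobulin, stood at 0.41 (interval -0.07 to 0.88) and at 0.26 without control replicate 2. The brightest genes of the list were near 0, with Vim at -0.02 and Ccnd1, the cyclin D1 gene, at -0.02, besides Gfap at 0.03.

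**Figure D5:**
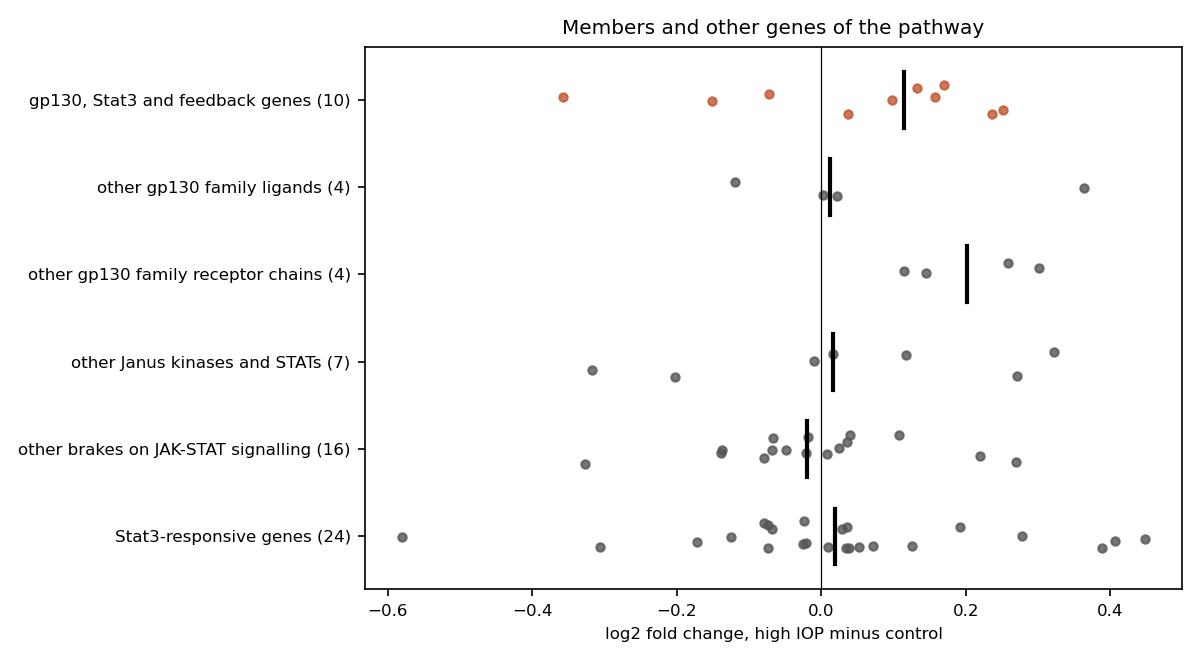
Log2 fold change, high IOP minus control, of the 10 genes (orange) and of the other measured genes of the pathway in 5 lists (grey, number of genes in brackets), 1 point per gene with a bar at the median. The medians lie between -0.02 and 0.20, and no point passed limma's test over all genes.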

How the data were processed

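RNA was measured in 5 control and 5 high IOP pools of 2 optic nerve heads. Per the labels' protocols, 30 ng of total RNA were amplified with the Ovation system and biotin-labelled. The authors deposited 1 table with the intensity of 22690 probe sets, 64 of them controls, which is linear judged by its values (0.69 to 20168). The sources used here do not give how it was summarised, background-corrected or normalized, and array medians differ. No detection calls were used, and precision is limited by the number of arrays. Of 22626 probe sets, 20380 had 1 symbol, 691 several and 1555 were not in the annotation and stay unnamed; 20351 Entrez identifiers matched RefSeq, and 0 symbols differed.

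Here log2(signal + 16) was computed, the probe set with the highest mean was taken for each gene, and groups were compared with limma 3.58.1 (lmFit, eBayes, R 4.3.3) without covariates, over all 12393 genes and over all probe sets, with Benjamini-Hochberg adjustment, a threshold of 0.05 and 95% intervals. The test was checked on simulated data drawn independently for each gene and array. These held no pairing of eyes and no deviant array, so the check does not cover those features. Correlations used 100000 permutations, marker scores an exact test over 252 splits, whose smallest p is 0.00794. The genes named were all 10 members, the 3 brightest and the 2 with the smallest p of each pathway list, 1 defining marker per marker list where measured, and the 5 genes most like Stat3 and Socs3. Il6, below this rule, was named after its values were seen, as were the arrays singled out. Members and lists were chosen with earlier results of these data known. Listed genes without a measured probe set were not analysed here. The alternatives were other scalings, probe set rules, filters, variance models, pseudocounts, covariates, a replicate block and leaving out each array. By the counts the groups are fellow eyes of the same mice, but the labels do not say whether equal replicate numbers are the same mice. Same-numbered arrays correlated at -0.08 to 0.21 in their deviations, which cannot decide this with 5 pools per group. Because the labels do not give the pairs, the main comparison had no block. It treated the groups as independent, which leaves the pairing of eyes out. Tables and permutations ran in Python 3.11.15 with pandas 2.3.3, NumPy 2.4.6 and SciPy 1.17.1, and plots in Matplotlib 3.10.9.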

Additional observations from a re-analysis of the deposited data

Results flagged for a closer look

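In 5 of the 52 groups of 5 arrays formed by the 26 probe sets, 1 array lay apart from the other 4 on log2(signal + 16) by more than Dixon's 95% critical value of 0.71, where chance gives about 1 in 20 groups, or 2.6. Control replicate 5 read 540 for Clcf1 at 1437270_a_at against 74.4 to 134 on the other control arrays, and 459 at 1437271_at against 93.4 to 129, so 2 of the 3 probe sets of this ligand gene set the same pool apart. On linear signals, a scale added after seeing the data, 8 groups passed, these 5 with Lif at 1421207_at on control replicate 5 (221 against 56.5 to 86.9), Lifr at 1454984_at on control replicate 1 (3626 against 2478 to 2802) and Lif at 1450160_at on control replicate 3 (1.67 against 0.98 to 1.18). The second Lif probe set, 1450160_at, read 11.3 on high IOP replicate 5 against 1.00 to 2.31 on the other high IOP arrays, a level among the dimmest probe sets. The second bright probe set of Stat3, 1460700_at, read 1324 on high IOP replicate 3 against 2586 to 3089. High IOP replicate 1 read 125 at the second probe set of Jak2, 1421065_at, against 232 to 257. That array also had the highest Gapdh ratio (2.07), whose part in the Jak2 value was not tested.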

How the results depend on the processing

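No gene and none of the 10 members passed limma's adjusted threshold under any alternative run. Fits over all 12393 genes had 299 to 1047 at an unadjusted p under 0.05. The fit without the dimmest 50% had 220 of 6197. The highest count and the lowest adjusted p (0.482) came without high IOP replicate 3. The replicate block takes equal numbers as pairs, which the array correlations cannot decide with 5 pools per group. Own number was the best match, in both directions, for replicates 2 and 4 and not for the others. With this block 454 genes had a limma unadjusted p under 0.05, 0 were called, and Jak1 kept -0.36 (limma unadjusted p = 0.07). Some values, from near 0 up to 0.22 in size, changed sign, and the cause was not tested. With quantile normalization Stat5a stood at 0.025, Vim at 0.0017, Ccnd1 at 0.016 and the fibroblast score difference at 0.0086. With equal array medians Stat5a was 0.017, Vim 0.0030 and Ccnd1 0.0065. The mean over probe sets gave Osmr -0.021, Il6st -0.18, Cntfr -0.0068, Ptpn11 -0.091 and Ccnd1 0.024. Array weights gave Socs5 0.00016 and Gfap -0.0018, and the photoreceptor covariate gave Ebi3 -0.065. The oligodendrocyte covariate gave Osmr -0.0048, Il6st -0.013, Stat5a 0.0089, Socs5 0.0076, Gfap -0.015 and Ccnd1 0.00069. The Gapdh covariate gave Stat3 -0.00041, Osmr -0.031, Il6st -0.027, Lifr 0.0016, Stat5a 0.023, Socs5 0.083, Ptpn11 -0.022 and Gfap -0.037. With 1 array left out, signs changed within these ranges: Il6st -0.0012 to 0.066, Lifr -0.12 to 0.020, Ebi3 -0.078 to 0.15, Stat5a -0.036 to 0.018, Socs5 -0.13 to 0.030, Gfap -0.0030 to 0.049, Stat3 1460700_at -0.044 to 0.44, Lifr 1425107_a_at -0.022 to 0.25 and Clcf1 1437271_at -0.18 to 0.42. Score differences ranged from -0.0058 to 0.21 for endothelium, -0.057 to 0.013 for fibroblasts, -0.19 to 0.13 for neutrophils and blood, -0.012 to 0.23 for pericytes, -0.17 to 0.30 for pigment cells and -0.20 to 0.00068 for retinal neurons. The count of pairs past the adjusted threshold ranged from 0 to 3 against 2 with all arrays. Signal limits Lif, its second probe set, Lifr 1450207_at and Stat3 1424272_at, which are among the dimmest readings.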
